A study of Homo sapiens with 6 samples.

Results

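The E2F and DP transcription factors are encoded by 10 genes, E2F1 to E2F8, TFDP1 and TFDP2, which were chosen by their symbols as the members of this family. They are 10 of the 21447 genes to which the deposited transcripts were matched, and all 10 had enough counts to be among the 14323 genes tested. Bulk RNA-seq was performed on the human osteosarcoma line U-2 OS, grown without synchronization, in 3 libraries of untreated cells and 3 libraries of cells that had received 4 Gy of ionizing radiation (IR) 24 h earlier. Both groups were kept in the same serum-containing medium, and the labels name no other agent and no genetic change. All libraries come from this 1 cell line. The paper describes 3 independent samples for these data, but no label states that replicates were separate cultures. The P values below therefore measure the spread between these libraries.

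E2F proteins control the genes that a cell needs to pass from G1 into S phase. E2F1, E2F2 and E2F3 are classed as activators, which the retinoblastoma protein RB holds back until G1 cyclin-dependent kinases (CDKs) release them. E2F4 and E2F5 act mainly as repressors together with the RB relatives p107 and p130, E2F6 represses without RB family proteins as part of a Polycomb complex, and these canonical E2Fs bind DNA as dimers with DP1 or DP2, the products of TFDP1 and TFDP2. E2F7 and E2F8 are called atypical because they bind DNA without a DP partner. They are known to turn G1/S genes down again later in the cell cycle, and E2F7 is also known as a target of p53, the transcription factor that DNA damage activates.

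Several E2F genes are known to be controlled by E2F proteins themselves. In the 300-base promoter windows of RefSeq (GRCh38.p14, from 250 bases before a start to 50 after it), the E2F words TTTCCCGC, TTTCGCGC, TTTGCCGC and TTTGGCGC were searched on both strands. A window with at least 1 word was found for 4 of the 8 members in the table, E2F1, E2F2, E2F3 and TFDP1, and not for E2F4, E2F6, E2F7 or TFDP2. For comparison, 3.31% of all 35116 promoters, 3.99% of all 27305 genes and 58.1% of 43 known G1/S target genes of E2F held a word. The table has no entry for E2F5 and E2F8. The 150 bases before the start are shown for the 4 genes with a word, in the direction of transcription, with the words in capitals. Near matches to these words and bases outside the windows were not searched.
E2F1, reverse strand, chr20:33686386-33686535: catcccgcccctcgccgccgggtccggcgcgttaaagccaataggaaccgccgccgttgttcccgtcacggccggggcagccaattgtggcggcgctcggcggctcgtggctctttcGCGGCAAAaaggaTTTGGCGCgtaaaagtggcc
E2F2, reverse strand, chr1:23531234-23531383: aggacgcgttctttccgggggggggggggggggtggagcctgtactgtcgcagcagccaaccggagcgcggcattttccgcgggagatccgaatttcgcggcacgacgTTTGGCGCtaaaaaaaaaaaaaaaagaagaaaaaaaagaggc
E2F3, upstream start, forward strand, chr6:20401729-20401878: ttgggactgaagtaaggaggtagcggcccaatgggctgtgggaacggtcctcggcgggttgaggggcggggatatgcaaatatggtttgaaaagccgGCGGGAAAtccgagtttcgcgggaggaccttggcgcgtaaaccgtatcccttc
TFDP1, forward strand, chr13:113584603-113584752: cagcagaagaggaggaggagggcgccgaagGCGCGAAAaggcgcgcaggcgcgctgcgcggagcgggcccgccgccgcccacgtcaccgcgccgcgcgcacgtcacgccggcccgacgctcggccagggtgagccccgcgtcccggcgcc
The E2F1 promoter held 2 words within 33 bases of the start, TTTGCCGC read from the opposite strand and TTTGGCGC on its own strand. The E2F2 word was TTTGGCGC, from 42 to 35 bases before the start, and that of E2F3 was TTTCCCGC on the opposite strand, from 53 to 46 bases before it. A second E2F3 window, near the downstream start (chr6:20403364-20403663), held 0 words. The more abundant E2F3 transcript in these libraries, E2F3-202, comes from that downstream start. The TFDP1 word, TTTCGCGC on the opposite strand, lay farther away, from 120 to 113 bases before the start. A match of these letters is a description and was not tested as a binding site.

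The libraries held between 18573309 and 22953834 estimated counts, except for IR replicate 3 with 45308792, whose values therefore have the smallest counting error. IR replicate 3 also had the largest chi-square per gene within its group. This value was 29.1 against IR replicate 1 and 32.3 against IR replicate 2, beside 3.46 to 9.22 for the other pairs within a group. It was computed on counts and can grow with depth, and the part due to depth was not tested. All 6 bone and mesenchymal marker genes were above 10 CPM (counts relative to a library size that was scaled by TMM), with a summed level of 6819 to 7448 CPM in untreated and 7241 to 7923 CPM in IR libraries. Summed levels of epithelial, blood and endothelial markers did not exceed 21.3, 1.76 and 5.14 CPM in any library, and 2 of the 4 blood markers were at 0 in all of them. Of 15 targets of p53 listed to check the irradiation, 15 were higher after IR, by a median of 0.95 on the log2 scale. In all tested genes the changes moved with GC content. In the 3581 tested genes richest in GC (56.5% to 74.0%), which include E2F1 and E2F4, 36.3% were called higher and 1.82% lower, whereas in the 3581 poorest in GC (31.0% to 42.7%), which include E2F5, 4.19% were called higher and 29.2% lower. Each member was therefore also tested with this trend removed.

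After IR, E2F8 fell by 45.4%, E2F2 fell by 22.7%, and the other 8 members were not called. E2F8 is an atypical repressor and E2F2 an activator, so that the called members belonged to different classes. Of the 10 members, 2 were called lower and 0 higher by edgeR's quasi-likelihood test (adjusted P under 0.05), where 14.5% of all tested genes were lower and 15.5% higher. At an unadjusted P under 0.05, E2F3 was also lower and 0 members were higher. The 14.5% and 15.5% do not apply to this threshold, which more of all tested genes pass. By P, E2F3 ranked 5193 of the 14323 tested genes in either direction, so that at least 5193 genes pass it. The Wald test of DESeq2 called 2 members lower and 0 higher. IR and untreated libraries were fully separated for 3 members (E2F2, E2F3 and E2F8), where 47.1% of all tested genes were separated in this way. These shares do not set the family as a whole apart from other genes. In bulk libraries, fewer cells that express a gene and less of its RNA per cell cannot be told apart.

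**Figure D1:**
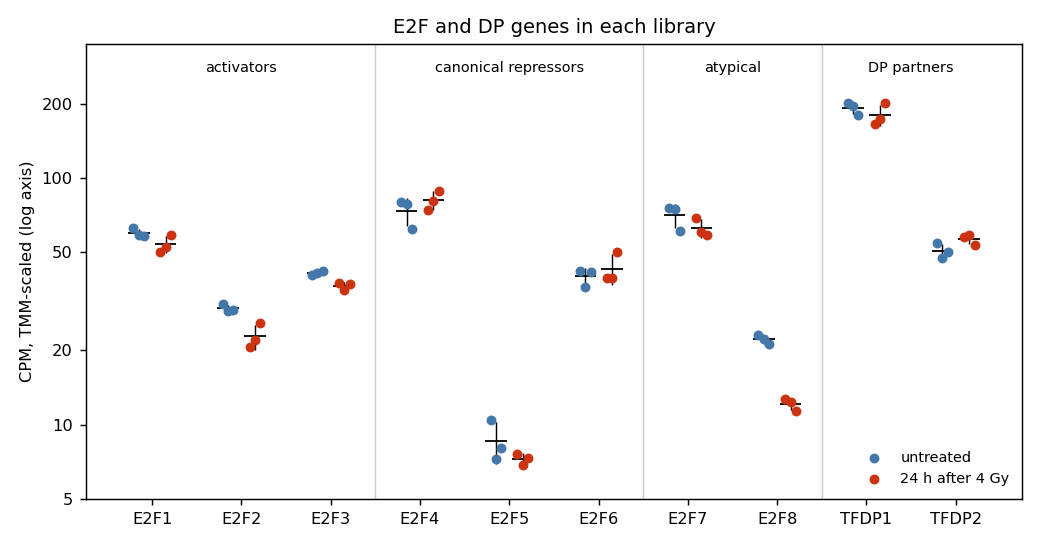
CPM of each member (log axis, TMM-scaled) in the 3 untreated (blue) and 3 IR (red) libraries, with the mean (horizontal line) and SD (vertical line). E2F8 fell from 22.2 to 12.1 CPM on average and shows a clear gap between the groups, E2F2 and E2F3 show small gaps, and the points of the other 7 members overlap.

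E2F8 is encoded on the reverse strand of chromosome 11 (19224063 to 19241620 in GRCh38) with 13 exons in its canonical transcript. Untreated libraries 1, 2 and 3 had 23.2, 22.2 and 21.2 CPM and IR libraries 1, 2 and 3 had 12.7, 12.4 and 11.4 CPM, and values of other members follow in the same order. All IR libraries were far below all untreated libraries, and the spread within each group was small. The means were 22.2 ± 1.01 CPM (SD, n = 3) and 12.1 ± 0.678 CPM (SD, n = 3). The log2 fold change was −0.87 ± 0.09 (standard error), with a 95% confidence interval from −1.07 to −0.68 and adjusted P = 2.91e-04 by edgeR, and by P E2F8 ranked 68 of the 14323 tested genes in either direction. The two-sided exact permutation test gave P = 0.1, below which a design of 3 against 3 libraries cannot go. E2F8 was called lower in all 14 alternative analyses, with log2 fold changes from −1.26 with an offset for effective transcript length to −0.81 with the GC trend removed together with a replicate block. CSRP3-AS1, on the opposite strand, shares exon sequence with E2F8, and the sources used here do not state that counting used the strand.

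E2F7, the other atypical member, lies on chromosome 12 from 77021248 to 77065569 on the reverse strand. Levels were 75.7, 75.2 and 61.3 CPM in untreated and 69.0, 60.2 and 58.7 CPM in IR libraries. The groups overlapped in CPM, since untreated replicate 3 was below IR replicate 1. The log2 fold change was −0.18 ± 0.10 (95% confidence interval from −0.39 to 0.04, adjusted P of 0.193 in edgeR's test). This interval did not overlap with that of E2F8, but the difference between these genes was not tested. E2F7 was not called higher and stayed below 0 without being called in all 14 alternatives (−0.40 to −0.09).

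E2F2, an activator on chromosome 1 from 23506438 to 23531233 on the reverse strand, was at 30.8, 28.9 and 29.3 CPM in untreated and at 20.7, 22.0 and 25.7 CPM in IR libraries. Every IR library was below every untreated library, and IR replicate 3 was closest to them. The log2 fold change was −0.37 ± 0.09 (95% confidence interval from −0.58 to −0.16, adjusted P of 0.0146 in edgeR's test, two-sided exact permutation P of 0.1). The call depended on the processing and on the libraries used. E2F2 was not called with the offset for effective length (−0.30, adjusted P = 0.160 from edgeR) or without untreated replicate 1 (−0.35, adjusted P = 0.0587 from edgeR). It was called in 12 of the 14 alternatives, at −0.49 with the GC trend removed.

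E2F1, the founding activator of the family, lies on chromosome 20 from 33675477 to 33686385 on the reverse strand. Its levels were 62.7, 58.6 and 58.3 CPM in untreated and 50.3, 52.6 and 58.9 CPM in IR libraries. IR replicates 1 and 2 were below all untreated libraries, whereas IR replicate 3 was within their range. The log2 fold change was −0.15 ± 0.08 (95% confidence interval from −0.32 to 0.03, adjusted P of 0.176 in edgeR's test). Without IR replicate 3 it was called at −0.23 (adjusted P = 0.0262 from edgeR), and it was also called with the GC trend removed, at −0.45 (adjusted P = 7.41e-04 from edgeR). E2F1 is rich in GC (61.6%), and with the effective length offset its log2 fold change was −0.04. Its direction was the same in every alternative run, and its size was not.

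E2F3, the third activator, lies on chromosome 6 from 20401879 to 20493714 on the forward strand. Levels were 40.5, 41.1 and 42.2 CPM in untreated and 37.5, 35.2 and 37.1 CPM in IR libraries. All IR libraries were below all untreated libraries, but by little. The log2 fold change was −0.17 ± 0.07 (95% confidence interval from −0.32 to −0.02, adjusted P of 0.0799 in edgeR's test, two-sided exact permutation P of 0.1), and E2F3 remained uncalled in all 14 alternatives.

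None of the canonical repressors was called. E2F4, the most abundant of the E2F genes, lies on chromosome 16 from 67192155 to 67198918 on the forward strand. Levels were 79.8, 78.7 and 62.4 CPM in untreated and 74.4, 81.1 and 88.7 CPM in IR libraries. The groups overlapped, with the lowest value in untreated replicate 3 and the highest in IR replicate 3. Its log2 fold change of 0.15 (95% confidence interval −0.08 to 0.37) turned to −0.05 with the GC trend removed, and its GC content was 58.5%. It was 0.04 without untreated replicate 3 and 0.07 without IR replicate 3. E2F6, on chromosome 2 from 11444375 to 11466177 on the reverse strand, was at 42.2, 36.3 and 41.7 CPM in untreated and at 39.4, 39.3 and 50.1 CPM in IR libraries. Here IR replicate 3 stood above the 5 other libraries, and the log2 fold change was 0.11 (95% confidence interval −0.13 to 0.35) with it and −0.03 without it. E2F5, the least abundant member in CPM, was at 10.4, 7.27 and 8.06 CPM in untreated and at 7.60, 6.86 and 7.35 CPM in IR libraries. Untreated replicate 1 was above all others, the groups overlapped, and the log2 fold change was −0.23 (95% confidence interval −0.57 to 0.10) with it and −0.07 without it. Exons of E2F5 overlap with those of RBIS on the opposite strand. The adjusted P of edgeR's test was 0.299 for E2F4, 0.267 for E2F5 and 0.465 for E2F6.

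The DP partners were not called either. TFDP1, which encodes DP1, lies on chromosome 13 from 113584721 to 113641473 on the forward strand. Levels were 201, 196 and 180 CPM in untreated and 166, 174 and 201 CPM in IR libraries. IR replicate 3 lay at the top of the untreated range and the other 2 IR libraries lay below it, and the log2 fold change was −0.09 (95% confidence interval −0.27 to 0.09, adjusted P of 0.433 in edgeR's test) with it and −0.19 without it. TFDP2, which encodes DP2, lies on chromosome 3 from 141944428 to 142149544 on the reverse strand. Its values were 54.4, 47.3 and 50.04 CPM in untreated and 57.7, 58.7 and 53.5 CPM in IR libraries. The 2 groups overlapped, since IR replicate 3 was below untreated replicate 1. The log2 fold change of 0.16 (95% confidence interval −0.01 to 0.33, adjusted P of 0.129 in edgeR's test) became a called 0.26 with the GC trend removed (adjusted P = 0.0190 from edgeR) and −0.03 with the effective length offset, so that its direction depended on the scaling.

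**Figure D2:**
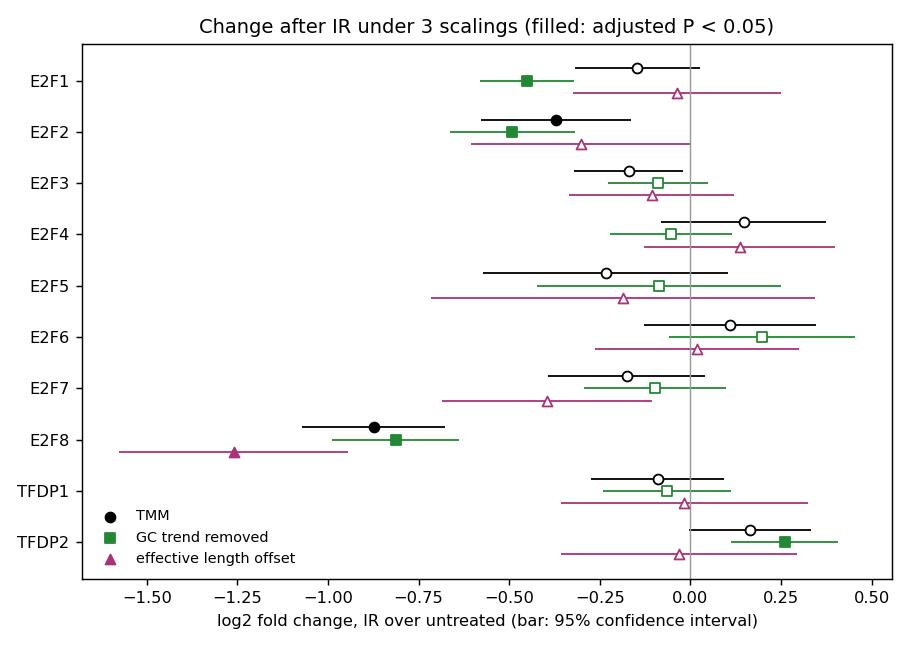
Log2 fold change of each member (x axis, IR over untreated) with its 95% confidence interval under TMM scaling (circles), with the GC trend removed (squares) and with the effective length offset (triangles), filled where the adjusted P was under 0.05. E2F8 is filled and below −0.81 in all 3, whereas E2F1, E2F2 and TFDP2 are filled in some and open in others.

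Levels of different genes were compared in TPM, the transcript abundance scaled for effective length and library total. In untreated cells, TFDP1 (134 ± 4.34 TPM, SD, n = 3) and TFDP2 (77.4 ± 6.70 TPM) were above all E2F genes. E2F4 (44.3 TPM) and E2F6 (30.7 TPM) came next, then E2F7 (21.0 TPM) and E2F1 (20.2 TPM), then E2F8 (13.2 TPM), and last E2F3 (11.0 TPM), E2F5 (8.94 TPM) and E2F2 (6.50 TPM). Neighbours in this order did not overlap between libraries, apart from E2F7 with E2F1, E2F3 with E2F5 and E2F5 with E2F2. In IR libraries the order differed at the lower end, where E2F8 moved from rank 7 to rank 9 of 10. E2F8 was at 13.2, 12.98 and 13.3 TPM in untreated and at 6.03, 5.17 and 4.80 TPM in IR libraries, and after IR it overlapped with E2F2. E2F2 itself was at 7.01, 6.39 and 6.11 TPM in untreated and at 4.43, 4.65 and 6.24 TPM in IR libraries. On this scale IR replicate 3 of E2F2 was within the untreated range, unlike in CPM. E2F7 was at 21.8, 23.5 and 17.8 TPM in untreated and at 17.2, 13.5 and 15.8 TPM in IR libraries. Its groups did not overlap in TPM, whereas they overlapped in CPM.

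The order depends in part on short transcripts, to which length scaling gives much weight. Transcripts under 1000 bases held 61.7% of the TPM of TFDP2 in untreated cells but 17.0% of its counts, and 35.3% of the TPM of E2F8 but 7.38% of its counts. Summed over transcripts of 1000 bases or more, a choice made after seeing the data, TFDP2 was at 29.6 TPM in untreated and 35.1 TPM in IR cells, and E2F8 was at 8.53 and 4.82 TPM. On this measure E2F4 (31.2 TPM in untreated cells) came above TFDP2, although their libraries overlapped, and E2F8 came below E2F3 (11.0 TPM). E2F7, at 14.4 to 18.3 TPM in untreated and 12.9 to 15.8 TPM in IR libraries, then overlapped between groups.

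The balance between the classes was described as shares of the summed TPM of E2F1 to E2F8, without a test. Atypical E2Fs held 21.0%, 23.9% and 21.0% in untreated and 17.2%, 15.2% and 12.7% in IR libraries. Canonical repressors held 55.6%, 51.7% and 54.1% in untreated and 59.5%, 60.7% and 61.8% in IR libraries. No IR library overlapped with an untreated library in either share, with the atypical share lower and the canonical share higher after IR, and since the shares add up to the whole, these are not separate observations. The activators held 23.3%, 24.4% and 24.8% in untreated and 23.2%, 24.2% and 25.5% in IR libraries, so that the groups overlapped. Over transcripts of 1000 bases or more, the atypical share still did not overlap between groups (19.1% to 21.2% against 14.0% to 18.5%), nor did the canonical share (50.4% to 52.5% against 54.6% to 57.5%). All these shares include transcripts not annotated as protein-coding. Protein-coding transcripts held 69.7% of E2F4 TPM in untreated and 76.3% in IR cells, and 13.4% and 18.5% of E2F6 TPM. In E2F4, transcripts annotated for nonsense-mediated decay held 15.5% in untreated and 3.41% in IR cells, and retained introns 13.9% and 19.0%. The canonical share is therefore not a share of coding RNA. The decay transcripts of E2F4 varied strongly between libraries of a group. E2F4-212 was at 8.69, 2.94 and 0 TPM in untreated and at 0, 0 and 0.653 TPM in IR libraries. E2F4-213 was at 0, 0.482 and 7.51 TPM in untreated and at 3.17, 0 and 0.395 TPM in IR libraries. The transcript usage of E2F4 was not called (edgeR's diffSpliceDGE, adjusted P of 0.252). Within the atypical class, the ratio of E2F7 to E2F8 TPM was 1.64, 1.81 and 1.34 in untreated and 2.85, 2.61 and 3.30 in IR libraries, without overlap. The ratio of TFDP1 to TFDP2 TPM was 1.596, 1.87 and 1.73 in untreated and 1.32, 1.41 and 2.78 in IR libraries, with IR replicates on both sides of the untreated range. Over transcripts of 1000 bases or more this ratio was 2.99, 3.67 and 3.44 in untreated and 2.46, 2.31 and 2.98 in IR libraries, where every IR value lay below every untreated value, so that its reading depended on the short transcripts.

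**Figure D3:**
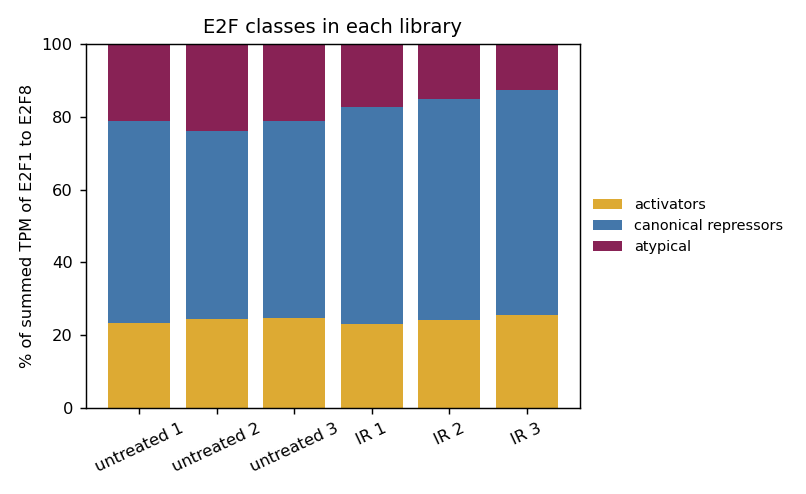
Share of activators, canonical repressors and atypical E2Fs in the summed TPM of E2F1 to E2F8 (y axis, %) in each of the 6 libraries. The atypical share at the top lies between 21.0% and 23.9% in untreated and between 12.7% and 17.2% in IR libraries, while the activator share stays between 23.2% and 25.5%.

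Each of the 3 transcripts of E2F8 with at least 1 TPM was at a lower level in the IR libraries. E2F8-202, which starts farthest upstream, was at 6.25, 5.63 and 5.80 TPM in untreated and at 3.26, 3.36 and 2.06 TPM in IR libraries. E2F8-201 was at 2.78, 3.02 and 2.10 TPM in untreated and at 1.73, 1.30 and 2.03 TPM in IR libraries. The IR libraries were below the untreated libraries for both. E2F8-204, of 719 bases, was at 4.01, 3.17 and 5.40 TPM in untreated and at 1.03, 0.261 and 0 TPM in IR libraries, and it held 25 to 39 estimated counts per library in untreated and 0 to 8 in IR cells. Its share of the TPM of E2F8 was 31.8 ± 8.19% (SD, n = 3) in untreated and 7.37 ± 8.77% after IR, a shift that the test of transcript usage did not call (edgeR's diffSpliceDGE, adjusted P of 1.00, and 0.249 with at least 10 counts in every library of a group).

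In that test 0 of the 9 members with more than 1 transcript were called, where 2.73% of all 10666 tested genes were called. At an unadjusted P under 0.05, 3 members passed, with adjusted P of 0.252 for E2F4, 0.281 for E2F7 and 0.191 for TFDP1 from edgeR. TFDP1 was called without IR replicate 2 (adjusted P = 0.00411 from edgeR) and TFDP2 without untreated replicate 2 (adjusted P = 0.0376 from edgeR). For E2F4, the transcript of lowest unadjusted P (0.00167 by diffSpliceDGE) was E2F4-212. It was at 8.69, 2.94 and 0 TPM in untreated and at 0, 0 and 0.653 TPM in IR libraries. For TFDP1, that transcript was TFDP1-202 (0.00100 by diffSpliceDGE). It was at 13.7, 5.51 and 2.22 TPM in untreated and at 0, 1.38 and 0 TPM in IR libraries. TFDP1-207 (unadjusted P = 0.0429 by diffSpliceDGE) was at 40.9 TPM in IR replicate 3 and at 3.35 to 6.30 TPM in the 5 other libraries. Thus 1 library set the mean of TFDP1-207 after IR. In E2F7, the lowest unadjusted P (0.00287 by diffSpliceDGE) belonged to a transcript under 1 TPM on average in both groups. The 570-base transcript E2F7-203 (unadjusted P = 0.0624 by diffSpliceDGE) was at 3.05, 5.64 and 2.79 TPM in untreated and at 0.878, 0 and 0.174 TPM in IR libraries. The main transcript E2F7-201 overlapped between groups (9.63 to 16.7 and 9.40 to 13.5 TPM).

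E2F3 has 2 known start sites, from which the longer E2F3a and the shorter E2F3b proteins are made. The transcript from the upstream start, E2F3-201, was at 2.41 ± 0.187 TPM (SD, n = 3) in untreated and 1.85 ± 0.648 TPM after IR. The transcript from the downstream start, E2F3-202, was at 8.55 ± 0.391 and 8.02 ± 0.711 TPM and was the more abundant in all 6 libraries. The groups overlapped for both transcripts. For E2F6, 70.6% of the TPM in untreated and 69.2% in IR cells lay on transcripts annotated for nonsense-mediated decay, led by E2F6-207 (15.3 ± 2.87 and 14.6 ± 3.72 TPM). The annotated protein-coding transcript E2F6-202 was at 3.22 ± 1.21 and 5.56 ± 1.62 TPM, so that the TPM of this gene counts mostly RNA that is not annotated as coding for its full protein.

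The partners and regulators of E2F were taken as lists. Of 8 pocket proteins and MuvB subunits, which form the repressive complexes of E2F, 4 fell and 0 rose, where 14.5% of all tested genes were lower and 15.5% higher. At an unadjusted P under 0.05 the counts were 6 and 0, but more of all tested genes pass this threshold, and the 14.5% and 15.5% do not apply to it. By DESeq2 the counts were 5 and 0. The median log2 fold change was −0.27 against 0.01 over all tested genes. RBL1, which encodes p107, was at 38.6, 44.6 and 43.9 CPM in untreated and at 28.3, 26.1 and 26.6 CPM in IR libraries, without overlap. It fell by 0.65 on the log2 scale (edgeR, adjusted P = 7.08e-04). LIN54 (−0.52), LIN9 (−0.40) and RB1 itself (−0.34) also fell. RBL2, which encodes p130 and pairs with E2F4 in resting cells, was not called (−0.20, adjusted P = 0.0596 from edgeR). With the GC trend removed or with the effective length offset, 2 of the 8 were lower. Of all 14323 tested genes, 1877 and 875 were lower in these 2 settings.

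Among 8 G1 cyclins and CDKs, which release E2F from RB, 2 rose and 2 fell, where 15.5% of all tested genes were higher and 14.5% lower. With the effective length offset, or with GC removal and a replicate block together, 1 was lower. The D-type cyclins CCND2 (0.63) and CCND1 (0.52) rose, and CCNE2 (−0.71), itself a classical E2F target, and the D-cyclin partner CDK6 (−0.35) fell. CCNE1, the other cyclin E gene, was at 64.7 CPM in untreated and 69.3 CPM in IR cells and was not called. Of 6 tested CDK inhibitors, 2 rose and 2 fell, beside the same 15.5% and 14.5%. CDKN1A, which encodes p21, rose from 122 ± 1.70 to 351 ± 34.9 CPM (SD, n = 3 each), or by 1.53 on the log2 scale. CDKN1C (0.92) also rose but was at 1.54 and 2.86 CPM, and the count of higher inhibitors was 1 without untreated replicate 1, 2 or 3 and without IR replicate 1 or 3. CDKN2C (−0.57) and CDKN1B (−0.44) fell. CDKN2A had too few counts to be tested.

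Of 6 genes for the turnover of E2F proteins, 3 fell, where 14.5% of all tested genes were lower, and 0 rose (1 was higher at an unadjusted P under 0.05, FZR1). The count of lower genes was 2 with the replicate block, with the effective length offset, and without untreated replicate 1 or 2 or IR replicate 1 or 2. The 3 were SKP2 (−0.46) and CCNF (−0.30), subunits of ubiquitin ligases, and CCNA2 (−0.44), whose product cyclin A binds activator E2Fs. Of 10 subunits of the Polycomb complex that holds E2F6, 2 fell and 0 rose, as also by DESeq2 and with 0 higher at an unadjusted P under 0.05, and 2 of 10 is near the 14.5% of all tested genes that were lower. MGA (−0.68), the scaffold of the complex, was at 111, 127 and 124 CPM in untreated and at 88.1, 75.2 and 63.6 CPM in IR libraries, without overlap. RYBP had a log2 fold change of −0.29, and without untreated replicate 1 the count of lower subunits was 1. With the effective length offset it was 0. Of 10 germline genes that E2F6 is known to silence, 3 had counts enough for a test and 0 were called, and at an unadjusted P under 0.05 1 was lower. This was TUBA3C, at 212 CPM in untreated and 184 CPM in IR cells, whose reads may be split with near-identical tubulin genes.

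Of 52 G1/S genes that E2F is known to control, 30 fell and 0 rose, where 14.5% of all tested genes were lower and 15.5% higher. The median log2 fold change was −0.22 against 0.01 over all tested genes, and the values ranged from −0.69 to 0.21. At an unadjusted P under 0.05, 1 target was higher (CDT1, 0.21), and the Wald test of DESeq2 called 30 lower and 0 higher. The 3 of lowest P were ATAD2 (−0.69), RRM2 (−0.51) and POLA1 (−0.60), which encode a chromatin factor, a subunit of ribonucleotide reductase and the catalytic subunit of DNA polymerase alpha. RRM2, for example, was at 365, 358 and 395 CPM in untreated and at 267, 265 and 254 CPM in IR libraries, without overlap. The count of lower targets was 25 with the GC trend removed, 11 with the effective length offset, and 17 without untreated replicate 1 or without IR replicate 2, where 1 target was higher. Over all tested genes, 2080 were lower in the main fit, 1877 with the GC trend removed and 875 with the effective length offset. Without untreated replicate 1 they numbered 1287, and without IR replicate 2 they numbered 1423. The fall of E2F8 was larger than that of any of these targets in log2 fold change, while that of E2F2 lay within their range.

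**Figure D4:**
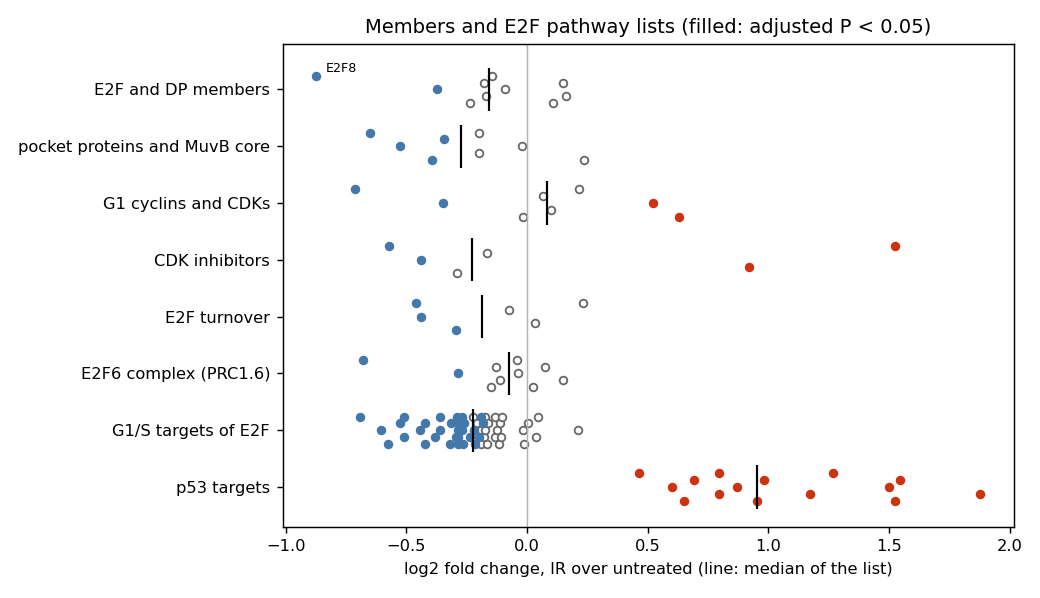
Log2 fold change (x axis, IR over untreated) of the members and of each gene in the lists of E2F partners, regulators and targets, filled blue (lower) or red (higher) where the adjusted P was under 0.05, with the median of each list as a line. The medians of the G1/S targets (−0.22) and of the pocket proteins and MuvB core (−0.27) lie below 0, and all 15 p53 targets lie above it.

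As a description of likeness, the genes whose log2 CPM followed a member most closely over the 6 libraries were listed among the 11676 genes that averaged 100 counts or more. With 6 points, libraries of unequal depth and so many genes, high values can arise without any relation, and no test was made. For E2F1 they were CBX2 (Pearson's r = 0.998), FAM53C (0.983) and PIMREG (0.980). For E2F4 they were FAM76A (0.995), POMGNT2 (0.992) and CAPZB (0.991), and for E2F7 LPIN1 (0.997), ENSG00000279059 (0.992), which has no symbol, and PBX3 (0.987). For TFDP1 they were DDB1 (0.994), SNX15 (0.988) and ACSL1 (0.987).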

How the data were processed

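Sequencing adaptors were removed with fastp and reads were assigned to transcripts with kallisto by the authors (GENCODE release 37 of GRCh38, versions of these tools not given in the sources used here). Whether total or poly(A) RNA was selected differs between the paper (total) and the labels (poly(A)). For each transcript and library, the authors deposited an estimated count, which is not normalized, a TPM value that is scaled for effective length and library total, and the length and effective length in bases, which are other quantities. Names, positions and GC content came from GENCODE release 44 by transcript identifier (158711 matched, 2460 did not, and 98.2% to 98.5% of the counts were kept). The counts were added up for each gene, rounded, filtered by filterByExpr, scaled by TMM and tested by the quasi-likelihood test of edgeR (version 4.0.16, limma 3.58.1, R 4.3.3) with Benjamini–Hochberg adjustment over 14323 genes. Transcript usage was tested by diffSpliceDGE with Simes P values. Standard errors were derived from the fold change and its F statistic (change divided by the root of F).

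Alternatives were no filter, at least 10 counts in every library, size factors and the Wald test of DESeq2 (1.42.0), a replicate block, removal of the GC trend of each library, both together, an effective length offset, and leaving out each library. Members and lists were chosen with earlier results of these data known, and the lists were written from general knowledge. Named genes are all members, the 3 called genes of lowest P per direction in each list (any gene of lists of up to 10), transcripts of at least 1 TPM, and the 3 most similar genes of 4 members. Replicates of a group differed by more than sampling noise (chi-square per gene of 3.46 to 9.22, and of 29.1 and 32.3 for pairs with IR replicate 3, the deepest library). A comparison of protein motifs was not made here. Scripts were tested on simulated data.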

Additional observations from a re-analysis of the deposited data

How the results depend on the processing

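E2F8 was called lower in all 14 alternatives, and E2F3, E2F5, E2F7 and TFDP1 kept their direction and were called in none. With the GC trend removed, E2F1 was called at −0.45 (with the replicate block −0.45), TFDP2 at 0.26 (0.26), and E2F4 was at −0.054 (−0.048), so that 1 member was higher (1 with the block). With the effective length offset E2F2 was at −0.30 and not called, TFDP2 was at −0.032, and 1 member was lower. Genes called higher numbered 1365 with the block and GC removal and 833 with the length offset, with 875 lower. Pocket and MuvB genes called lower numbered 2 with GC removal, with or without the block, and with the length offset. Lower G1 cyclins and CDKs numbered 1 with the block and GC removal and with the length offset, and higher CDK inhibitors numbered 1 with the block, GC removal, both, and the length offset. Lower subunits of the E2F6 complex numbered 1 with GC removal, with or without the block, and 0 with the length offset, which left 11 lower G1/S targets. Genes with changed transcript usage numbered 527 with at least 10 counts in every library of a group and 151 with the block. Over transcripts of 1000 bases or more, chosen after seeing the data, activators held 28.7% in untreated and 27.3% in IR cells, canonical repressors 51.2% and 56.4%, and atypical E2Fs 20.1% in untreated cells. The causes were not tested.

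In the 6 fits without 1 library, log2 fold changes lay between −0.23 and −0.11 for E2F1, −0.49 and −0.32 for E2F2, 0.04 and 0.21 for E2F4, −0.34 and −0.07 for E2F5, −0.033 and 0.17 for E2F6, −0.27 and −0.13 for E2F7, and −0.19 and −0.05 for TFDP1. Between 1295 and 2114 genes were higher and 1244 to 2284 lower, with 1 to 3 members lower. Higher CDK inhibitors numbered 1 to 2, lower E2F6 complex subunits 1 to 2, higher G1/S targets 0 to 1 and lower ones 17 to 30. Changed transcript usage was called in 240 to 454 genes and in 0 to 1 members.

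Replicate numbers are shared between groups, but the deviations of same-numbered libraries correlated at −0.02, 0.01 and −0.05, so the numbers were not taken as pairs. With the replicate block, 3351 genes were called against 4307 without it, and E2F8 was at −0.87. E2F5 had the lowest CPM of the members and the widest interval, and counting error and the spread between replicates were not separated.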
